A study of Oryza sativa with 15 samples.

Results

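Genes for chaperones and disulfide isomerases of the endoplasmic reticulum (ER) were followed in rice (Oryza sativa, cultivar Nipponbare) whole shoots across heat and drought. The 8 genes were taken by their locus identifiers from a table of 24073 genes, and all 8 identifiers were present. They were BIP1 (LOC_Os02g02410.MSUv7.0), BIP4 (LOC_Os05g35400.MSUv7.0), BIP5 (LOC_Os08g09770.MSUv7.0), GRP94 (LOC_Os06g50300.MSUv7.0), calnexin (LOC_Os04g32950.MSUv7.0), calreticulin (LOC_Os07g14270.MSUv7.0), PDIL1-1 (LOC_Os11g09280.MSUv7.0) and PDIL2-3 (LOC_Os09g27830.MSUv7.0). Plants of every group were 10 days in the pot under 12 h days, with 30 °C by day and 27 °C by night, and their shoots were frozen 6 h after dawn. In the heat groups, wet pots were held at 40 °C for 30 or 60 min just before that. Mild drought had 1.5 g and severe drought 1.25 g of water per g of soil throughout growth, and the wet control had 3 g per g, as did the pots used for heat. Each of the 5 groups had 3 samples, and pots held 7 plants. Heat was thus given over minutes to plants grown wet, whereas the drought groups had grown in drier soil.

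Proteins that enter the secretory pathway fold in the ER lumen. BiP, the HSP70 chaperone of the lumen, binds unfolded chains, and GRP94 is the HSP90 of the same compartment. Calnexin, in the ER membrane, and calreticulin, in the lumen, are lectins that hold newly made glycoproteins until they are folded. Protein disulfide isomerases form and rearrange the bonds between cysteines, and both PDIL1-1 and PDIL2-3 are known from the rice endosperm, where storage proteins are folded. When unfolded proteins build up, the kinase and ribonuclease IRE1 splices the mRNA of the transcription factor BZIP50 in rice, and the membrane-tethered factors BZIP39 and BZIP60 are cut free. These raise transcription of ER chaperone genes, a programme called the unfolded protein response. BIP4 and BIP5 are known in rice as BiP forms that appear under ER stress, while BIP1 is expressed without it.

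Messenger RNA was counted per gene in 15 libraries with 49479059 to 77969214 counts each. Levels are given as CPM, read counts set to a common library size with TMM factors, which were 0.622 to 0.706 in the libraries of 30 min of heat and 0.999 to 1.318 in all others. With total counts alone as the scale, the median log2 fold change over all genes shifted by -0.88 for 30 min of heat and by -0.12 for 60 min against the wet control, and by 0.76 between the heat times. In the mild and severe drought comparisons with the wet control it shifted by -0.16 and -0.15. The heat shock gene HSP101, a cytosolic disaggregase and the check of the heat labels, had 19918 ± 215 CPM after 30 min, 1646 ± 116 CPM after 60 min and 2.63 ± 1.81 CPM in the wet control (SD, n = 3 each). The 4 leaf marker loci had group means of 2994 to 24432 CPM, and none passed the threshold after 30 min of heat against the wet control (edgeR). With total counts alone the 30 min libraries of all 4 lay below every wet library. The share of all genes that did so was not computed, but 61% were called lower under that scaling (edgeR). After 60 min CAB2R and a small-subunit Rubisco locus were lower than in the wet control (-0.77 ± 0.24 and -0.88 ± 0.30) and lower than after 30 min (-1.06 ± 0.24 and -1.02 ± 0.30), and the other 2 passed in neither comparison. With total counts alone the 60 min libraries of those other 2 lay above every 30 min library. The share of all genes that did so was not computed either, but 49.2% were called higher (edgeR). Of the root markers LSI1 had means of 16.2 to 25.3 CPM and LSI2 had 0 counts. Of the seed markers GluA2 had means of 2.04 to 2.82 CPM, GluA1 had at most 7 counts in a library and the third locus had 0. Whether the 3 samples of a group are from separate pots is not in the labels, so p-values reflect the spread among these samples, which may be technical. In such bulk samples fewer cells of a type and less RNA per cell cannot be told apart.

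Of the 8 genes 6 had more than 1000 counts in every library, with 1521 as the lowest value. BIP4 passed the filter on low counts through its counts after heat, and BIP5 did not pass it, so 7 genes were tested. The other 6 are called the abundant genes. Gene lengths were not used here, so levels are compared between groups for 1 gene at a time, not between genes.

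**Figure D1:**
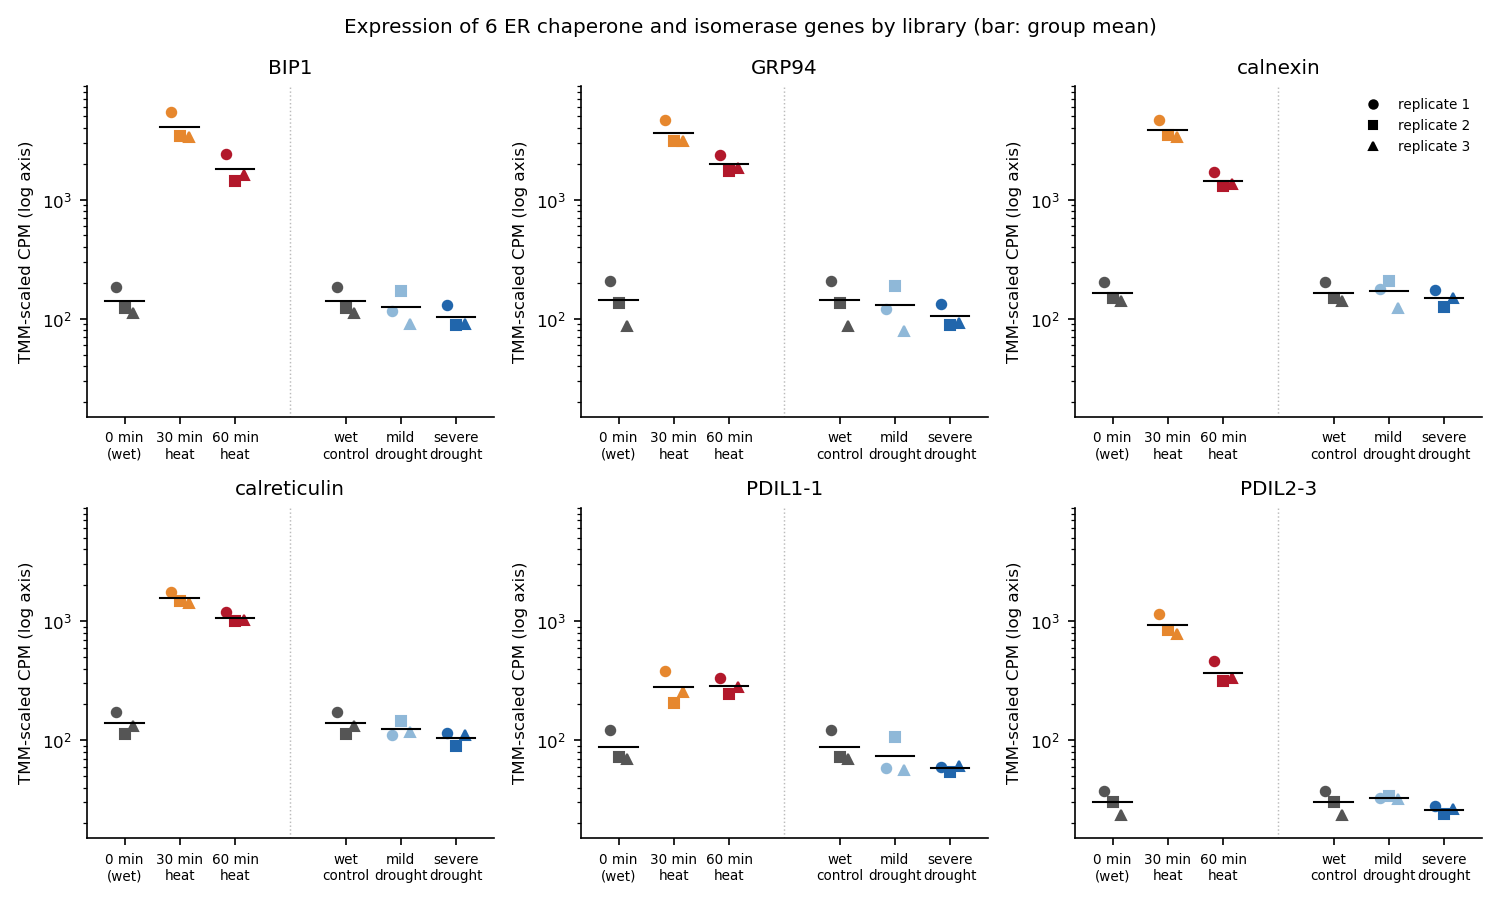
TMM-scaled CPM (log axis) of BIP1, GRP94, calnexin, calreticulin, PDIL1-1 and PDIL2-3 in each of the 15 libraries, by group, with a bar at each group mean. For each gene the 6 heat libraries lie above the 9 drought and wet libraries, and the drought and wet points overlap for most genes.

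Heat for 30 min was set against the wet control to ask how shoots respond to a short rise in temperature. All 6 abundant genes rose, by a median log2 fold change of 4.60, where all 20462 tested genes had a median of -0.14 (edgeR quasi-likelihood test, Benjamini-Hochberg adjustment over all genes, adjusted p under 0.05). In this comparison 38.9% of all genes were past the threshold and 19.3% were higher. With total counts alone 68.2% were past it, 7.23% higher and 61% lower. All 3 heat libraries lay above all 3 wet libraries for each of the 6, which held for 23.2% of all tested genes. BIP4 also passed, but it entered the test only through its heat libraries. The smallest rise was 3.18-fold, of PDIL1-1.

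BIP1 had 5477, 3392 and 3338 CPM after 30 min of heat, against 184, 124 and 111 CPM in the wet control. Every heat library was far above every wet library, and replicate 1 was the highest of both groups. BIP1 rose 29.1-fold, a log2 fold change of 4.86 ± 0.37 (SE; adjusted p = 2.8e-07, edgeR), which placed it at rank 223 of all tested genes from the highest. GRP94 had 4669, 3127.5 and 3082 CPM after 30 min, against 208, 135 and 87.7 CPM in the wet control. It rose 25.2-fold (4.66 ± 0.41 on the log2 scale, adjusted p = 1.3e-06, edgeR), with replicate 1 again on top of both groups.

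The lectin chaperones rose by unequal amounts. Calnexin had 4656, 3499 and 3372 CPM after 30 min of heat, against 205, 149 and 142 CPM in the wet control, and rose 23.3-fold (4.54 ± 0.27, adjusted p = 2.4e-08, edgeR). Calreticulin had 1772, 1489 and 1419 CPM after 30 min, against 174, 113 and 132 CPM in the wet control. Its rise was 11.2-fold (3.48 ± 0.21, adjusted p = 2.4e-08, edgeR), and its 3 heat libraries were closer together than those of BIP1.

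The isomerases stood at the ends of the range. PDIL2-3 had 1153, 834 and 779 CPM after 30 min of heat, against 37.7, 30.3 and 23.7 CPM in the wet control, the largest rise among the 6 abundant genes at 30.2-fold (4.92 ± 0.24, adjusted p = 3.7e-09, edgeR). PDIL1-1 had 378, 207 and 252 CPM after 30 min, against 121, 72.1 and 70.2 CPM in the wet control, the smallest rise (1.67 ± 0.30, adjusted p = 0.00079, edgeR). Scaling by total counts alone gave 3.99 for BIP1, 3.78 for GRP94, 3.66 for calnexin, 2.59 for calreticulin and 4.04 for PDIL2-3, all past the threshold. PDIL1-1 then had 0.79 with an adjusted p = 0.056 (edgeR), and its heat and wet libraries overlapped.

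Heat for 60 min was compared with the same wet libraries. All 6 abundant genes, and BIP4, were past the threshold and higher than in the wet control (edgeR), where 32% of all tested genes were called and 16.2% were higher (31.3% and 12.6% with total counts alone). The median log2 fold change of the 6 was 3.36, against -0.09 over all genes, and for each of them the heat libraries lay above the wet libraries, as for 24.6% of all genes. The heat comparisons thus share the 3 wet libraries. After 60 min BIP1 had 2419.85, 1445 and 1598 CPM, 13.04-fold higher than in the wet control (3.70 ± 0.35, adjusted p = 5.4e-06, edgeR). GRP94 had 2371, 1726 and 1839.9 CPM, 13.8-fold higher (3.78 ± 0.39, adjusted p = 1.3e-05, edgeR). Both again had their highest value in replicate 1.

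Calnexin had 1691, 1296 and 1351 CPM after 60 min, 8.76-fold higher than in the wet control (3.13 ± 0.25, adjusted p = 1.2e-06, edgeR). Calreticulin had 1201, 996 and 1018 CPM, 7.68-fold higher (2.94 ± 0.20, adjusted p = 2.9e-07, edgeR), so the lectins were nearer to each other in fold than after 30 min. PDIL2-3 had 459, 317 and 331 CPM, 12.1-fold higher (3.59 ± 0.23, adjusted p = 1.5e-07, edgeR). PDIL1-1 had 335, 245 and 279 CPM, 3.26-fold higher (1.71 ± 0.30, adjusted p = 0.0010, edgeR), a fold close to that after 30 min. Scaling by total counts alone kept all 7 past the threshold here.

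**Figure D2:**
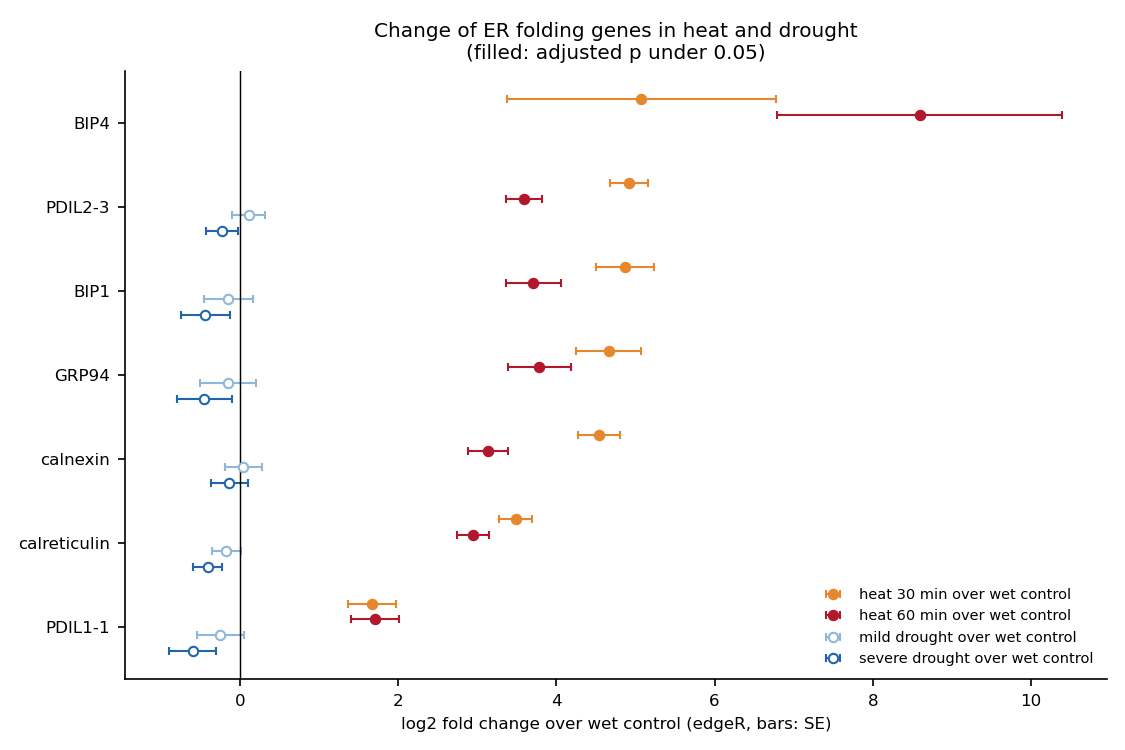
Log2 fold changes over the wet control (edgeR, bars are SE) of the 7 tested genes after 30 and 60 min of heat and in mild and severe drought, with filled points where the adjusted p was under 0.05. Both heat times lie to the right of 0 for all 7 genes, and the drought points of the 6 abundant genes lie between -0.60 and 0.10.

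The heat times were compared directly to ask whether levels changed within the hour. Of the 7 genes, 3 fell and 0 rose at 60 min against 30 min (edgeR), where 24.3% of all genes were past the threshold and 13.9% were lower. Under scaling by total counts 52.5% of all genes were past it, 49.2% higher and 3.32% lower. Calnexin averaged 1446 ± 214 CPM at 60 min and 3842 ± 708 CPM at 30 min (SD, n = 3 each), a log2 fold change of -1.41 ± 0.24 (SE; adjusted p = 0.0010, edgeR). PDIL2-3 averaged 369 ± 78.3 CPM at 60 min and 922 ± 202 CPM at 30 min (-1.32 ± 0.21, adjusted p = 0.00067, edgeR). BIP1 averaged 1821 ± 524 CPM at 60 min and 4069 ± 1219 CPM at 30 min (-1.16 ± 0.32, adjusted p = 0.019, edgeR). The call on BIP1 was lost without replicate 1 of 30 min (-0.88, adjusted p = 0.076, edgeR) and without replicate 2 or 3 of 60 min (-0.999 and -1.06, adjusted p = 0.089 and 0.080).

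The other 4 genes did not pass. GRP94 had 1979 ± 344 CPM at 60 min and 3626 ± 903 CPM at 30 min (-0.87 ± 0.35, adjusted p = 0.091, edgeR), and calreticulin 1072 ± 113 CPM and 1560.04 ± 187 CPM (-0.54 ± 0.19, adjusted p = 0.052, edgeR). PDIL1-1 was at 286 ± 45.4 CPM at 60 min and 279 ± 88.8 CPM at 30 min, a difference of 0.04 ± 0.30. The mean of 60 min was thus the lower one for 5 of the 6 abundant genes. Deviations of same-numbered libraries of the 2 heat times correlated at 0.21 to 0.45, but those of unlike-numbered libraries reached 0.27. A pairing is thus not established. A fit of these 2 groups with the replicate number as a block called 6 genes, where 39.1% of all genes were past the threshold. That fit added GRP94 (-0.80, adjusted p = 0.0070, edgeR), calreticulin (-0.48, adjusted p = 0.026) and BIP4 upwards (3.63, adjusted p = 0.0051). DESeq2 called 5, where 30.2% of all genes were past it. Both shares were above the 24.3% of the edgeR fit over all 15 libraries. Since the scaling of the heat times differs, the values under total counts alone differ too: -0.67 for calnexin (adjusted p = 0.039, edgeR), -0.58 for PDIL2-3 (adjusted p = 0.046), -0.43 for BIP1 (adjusted p = 0.30) and -0.14 for GRP94 (adjusted p = 0.78). Calreticulin turned to 0.21 (adjusted p = 0.45), PDIL1-1 was at 0.77 (adjusted p = 0.075) and BIP4 at 4.18 (adjusted p = 0.033). With TMM factors the leaf markers CAB2R and 1 Rubisco locus were also lower at 60 min, by amounts near that of BIP1. CAB1R and the other Rubisco locus did not pass (-0.47 and -0.50, adjusted p = 0.057 and 0.18, edgeR). With total counts alone the 60 min libraries of CAB2R lay below those of 30 min, and those of the called Rubisco locus overlapped them. The libraries of CAB1R and the other Rubisco locus then lay above. The part of leaf markers in these differences was not tested. HSP101 changed by -3.60 ± 0.41 between the same groups (adjusted p = 5.5e-05, edgeR).

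Ratios of counts within a library do not depend on how libraries are scaled, and they show the unequal rises directly. They are given as the log2 of a gene's counts over the BIP1 counts of the same library, and only their change between groups is read. PDIL1-1 moved furthest: its ratio was -4.03 to -3.73 at 30 min of heat, while it was -2.85 to -2.52 at 60 min, against -0.78 to -0.61 in the wet control. The 3 groups did not overlap, and PDIL1-1 transcripts were scarcest relative to BIP1 after 30 min. BIP1 itself rose 29.1-fold after 30 min and 13.04-fold after 60 min, so any gene that rose less has a lower ratio in heat. For these ratios the share of all genes without overlap was not computed. The calreticulin ratio was -1.63 to -1.19 at 30 min of heat, while it was -1.01 to -0.54 at 60 min, against -0.13 to 0.25 in the wet control, again without overlap.

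The calnexin ratio was -0.23 to 0.04 at 30 min of heat, while it was -0.52 to -0.16 at 60 min, both below the 0.16 to 0.35 of the wet control. In drought it was 0.28 to 0.61 with mild and 0.41 to 0.74 with severe drying, so the severe libraries, and not all mild ones, lay above the wet ones. The share of all genes that did so was not computed. Neither calnexin nor BIP1 passed the threshold in severe drought against the wet control (-0.14 and -0.44, adjusted p = 0.79 and 0.47, edgeR). GRP94 kept close to BIP1: its ratio was -0.23 to -0.12 at 30 min of heat, while it was -0.03 to 0.26 at 60 min, within or near the -0.34 to 0.18 of the wet control. The PDIL2-3 ratio was -2.25 to -2.02 at 30 min of heat, while it was -2.40 to -2.19 at 60 min, overlapping the -2.29 to -2.03 of the wet control. With 3 libraries against 3 an exact permutation test cannot go below 0.1, so no test of these ratios was made.

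**Figure D3:**
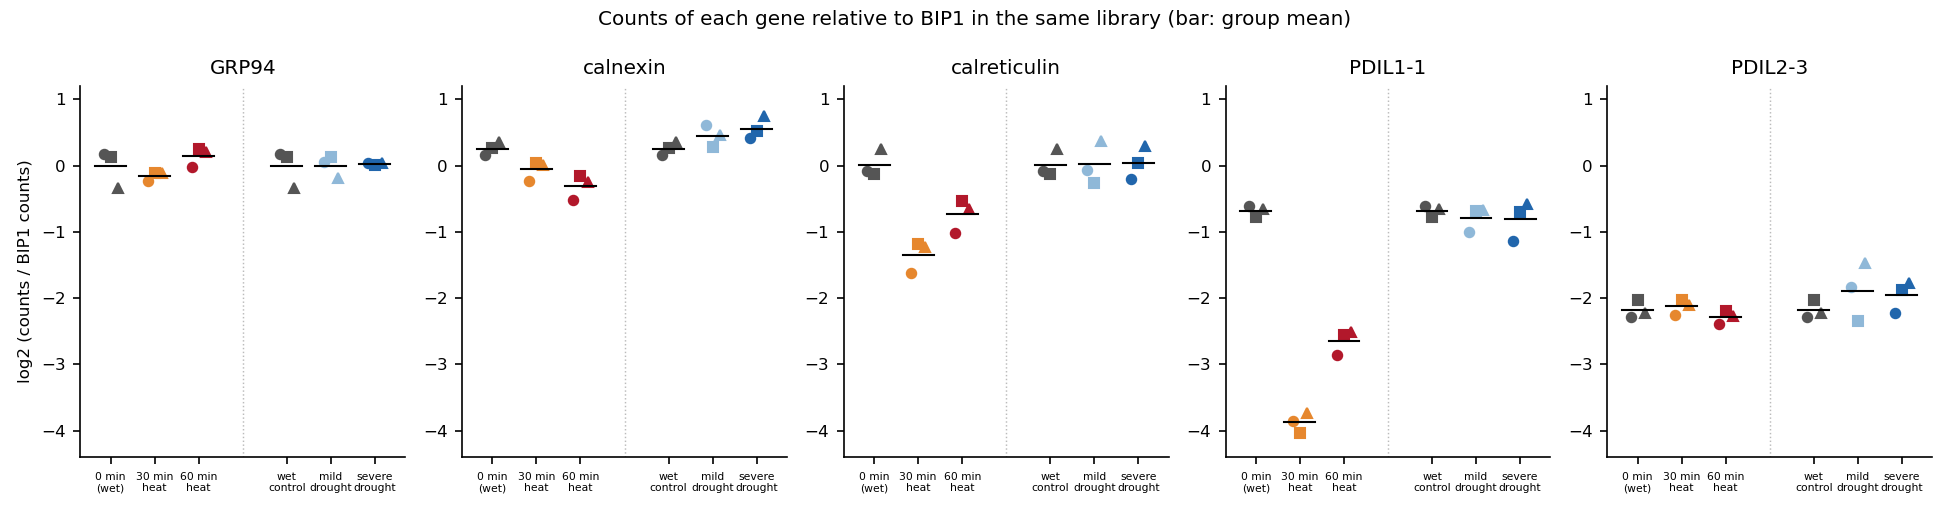
Log2 of the counts of GRP94, calnexin, calreticulin, PDIL1-1 and PDIL2-3 over the BIP1 counts of the same library, by group, with a bar at each group mean. PDIL1-1 and calreticulin lie lowest after 30 min of heat, with PDIL1-1 at a mean of -3.87 against -0.68 in the wet control, while GRP94 and PDIL2-3 stay near their wet values.

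Together the 8 genes took 1.28%, 0.780% and 0.775% of all counts after 30 min of heat and 0.905%, 0.674% and 0.727% after 60 min. In mild drought they took 0.0612%, 0.0950% and 0.0548%, in severe drought 0.0664%, 0.0539% and 0.0564%, and in the wet control 0.122%, 0.0661% and 0.0695%. Every heat library was above every other library in this share, and replicate 1 was the highest in both heat groups and in the wet control.

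BIP4 and BIP5, the BiP forms known from ER stress, had few counts. BIP4 had 82, 6 and 8 counts after 30 min of heat and 1168, 34 and 456 after 60 min, against 2, 0 and 2 in the wet control, and 0 in all 6 drought libraries. The 60 min libraries thus differed widely among themselves, with replicate 2 the lowest and replicate 1 the highest. In TMM-scaled CPM these were 1.64, 0.124 and 0.186 after 30 min and 15.3, 0.396 and 6.90 after 60 min, against 0.0249, 0 and 0.0269 in the wet control. A value of 3 counts, taken as the floor of a library, was 0.0350 to 0.0698 CPM, so the wet values lay under it. BIP5 had 4 counts in replicate 1 of 30 min and 2 in replicate 1 of 60 min, and 0 in the other 13 libraries, which is at or near that floor.

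**Figure D4:**
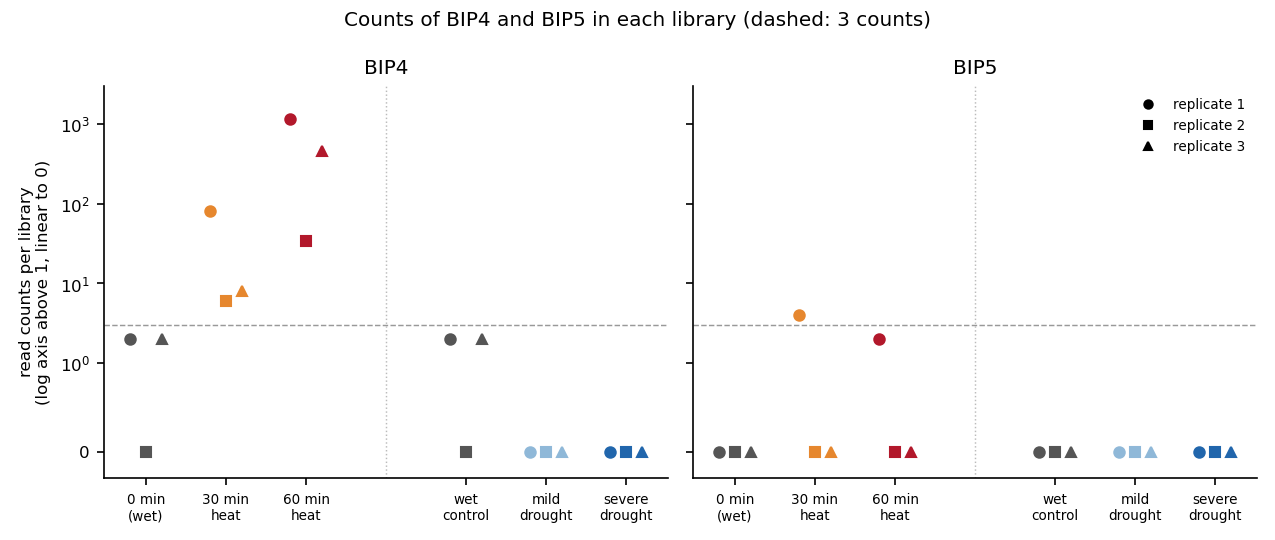
Read counts of BIP4 and BIP5 in each library (log axis above 1, linear to 0), by group, with a dashed line at 3 counts. With 60 min of heat BIP4 reaches 34 to 1168 counts, and with 30 min 6 to 82, and BIP5 does not exceed 4 counts in any library.

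BIP4 passed the count filter only through its heat libraries, so its fitted values over the wet control describe these libraries and are no independent support for a rise. After 60 min of heat the log2 fold change was 8.59 ± 1.80 (SE; adjusted p = 0.0070, edgeR), and 7.58 to 9.16 with a library left out. Summed counts, set per library size, were 412 times those of the wet control, with a 95% counting interval of 161 to 1513. That ratio was 183 without replicate 1 and 646 without replicate 2 of 60 min. After 30 min BIP4 had 5.07 ± 1.70 (adjusted p = 0.043, edgeR) and a ratio of 38.5 (14.6 to 144). Replicate 1 decided that call: without it the ratio was 8.69 and the log2 fold change 2.98 (adjusted p = 0.19, edgeR). It was also lost without wet replicate 1, 2 or 3 (adjusted p = 0.10, 0.11 and 0.10), with total counts alone (4.28, adjusted p = 0.053) and with no filter (adjusted p = 0.0502). Between the heat times BIP4 was at 3.52 ± 1.33 (adjusted p = 0.089, edgeR), and 2.52 to 5.58 with a library left out.

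Small counts in these files were mostly even: 81.8% of values from 1 to 10 and 66.9% from 11 to 50 were even numbers, against 50.9% from 51 to 1000. All 10 BIP4 and BIP5 values above 0 were even. Such counts do not behave as independent events, so counting intervals are likely too narrow. The cause of the even counts was not tested. If each pair of counts is taken as 1 event, the BIP4 interval after 60 min was 114 to 3407 and that after 30 min 10.1 to 327. The intervals cover counting error only.

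The counts of BIP4 relative to BIP1 in the same library are read only for their change between groups. There were 0.300, 0.0365 and 0.0558 BIP4 counts per 1000 BIP1 counts after 30 min of heat, which overlapped the 0.135, 0 and 0.243 of the wet control. After 60 min there were 6.31, 0.274 and 4.32 per 1000. The lowest of these was close to the highest wet value, 0.243, which rests on 2 counts, under the floor of 3. BIP4 passed the count filter only through its heat libraries, so these values are no independent support for a rise. BIP4 and BIP5 together made up 0.628%, 0.0274% and 0.430% of the summed counts of BIP1, BIP4 and BIP5 after 60 min. They made up at most 0.0314% in a library of 30 min, 0% in drought and at most 0.0243% in the wet control. Reads that match more than 1 BiP gene may have been shared or dropped in the counting, and their part in these shares was not tested.

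Mild drought was set against the wet control to ask what drier soil alone changes. Of the 7 tested genes 0 were past the threshold (edgeR), where 1.44% of all genes were. By DESeq2 0 were, where 11.2% of all genes were. An unadjusted p under 0.05 (edgeR) was held by 0 of the 7, and by 4498 of all 20462 genes. BIP1 had 116, 172 and 89.6 CPM in mild drought, against 184, 124 and 111 CPM in the wet control (-0.15 ± 0.31). GRP94 had 120.1, 189 and 78.7 CPM, against 208, 135 and 87.7 CPM (-0.15 ± 0.35). In both genes the mild libraries spread as widely as the wet ones and overlapped them.

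Calnexin had 176, 209 and 124 CPM in mild drought (0.04 ± 0.23) and calreticulin 111, 144 and 116 CPM (-0.18 ± 0.19). PDIL1-1 had 57.9, 107 and 56.1 CPM (-0.25 ± 0.30), and PDIL2-3 had 32.6, 33.8 and 32.2 CPM (0.10 ± 0.21). The adjusted p of the 6 abundant genes was 0.61 to 0.94 (edgeR). None of these differences exceeded the spread between replicates, and calnexin and PDIL2-3 changed sign with total counts alone.

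Severe drought against the wet control gave 0 of 7 genes past the threshold as well (edgeR), where 2.69% of all genes were. By DESeq2 0 were too, where 8.85% of all genes were. Calreticulin was the 1 of the 7 with an unadjusted p under 0.05 (edgeR), as were 3876 of all 20462 genes. All 6 abundant genes had means below the wet control, with a median log2 fold change of -0.43, against -0.02 over all genes. BIP1 had 131, 87.8 and 89.7 CPM in severe drought, against 184, 124 and 111 CPM in the wet control (-0.44 ± 0.31). GRP94 had 134, 88.3 and 92.4 CPM (-0.45 ± 0.35), within the range of the wet libraries.

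Calreticulin had 114, 89.7 and 110.3 CPM in severe drought, against 174, 113 and 132 CPM in the wet control (-0.41 ± 0.19, adjusted p = 0.25, edgeR). PDIL1-1 had 59.4, 54.1 and 60.2 CPM, below each of the 121, 72.1 and 70.2 CPM of the wet control (-0.60 ± 0.30, adjusted p = 0.30, edgeR). It was the 1 gene of the 7 whose severe libraries all lay below the wet ones, as 9.03% of all tested genes did. With total counts alone calreticulin and PDIL2-3 did so too, and 12.1% of all genes. Calnexin had 175, 125 and 149.98 CPM (-0.14 ± 0.23) and PDIL2-3 had 27.9, 23.9 and 26.3 CPM (-0.23 ± 0.21).

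Severe was compared with mild drought to ask whether drier soil gave a further change. Of the 7 genes 0 passed (edgeR), where 0% of all genes did. By DESeq2 0 passed, where 0.22% of all genes did. Although 569 of all genes had an unadjusted p under 0.05 (edgeR), 0 of the 7 did. The 6 abundant genes had log2 fold changes of -0.35 to -0.18. PDIL2-3 had 23.9 to 27.9 CPM in severe drought and 32.2 to 33.8 CPM in mild drought, without overlap (-0.33 ± 0.21), as for 2.21% of all tested genes in that direction.

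Set against the heat groups, severe drought was lower in the 6 abundant genes at both times (edgeR). BIP4 was called lower too, but it passed the count filter only through its heat libraries. Its calls and bounds below are thus no independent support for a difference. Against 30 min of heat 40.5% of all genes were past the threshold and 20.6% were lower in drought, and the 6 abundant genes had log2 fold changes of -5.31 to -2.27 (-4.61 to -1.56 with total counts alone, where 58.3% of all genes were past the threshold and 8.83% lower). Against 60 min 35.2% were past it and 18.4% were lower, and the 6 genes had -4.24 to -2.31. BIP4, at 0 counts in severe drought, was at least 41.4-fold lower than after 30 min and at least 443-fold lower than after 60 min, with the floor of 3 counts set over the group. Without replicate 1 of the heat group these bounds were 9.35 and 197. Without severe replicate 2 they were 25.8 and 276, and the bound against 60 min was 695 without replicate 2 of 60 min. Its call against 30 min was lost without replicate 1 of 30 min (adjusted p = 0.082, edgeR) and without any of severe replicates 1, 2 and 3 (adjusted p = 0.052, 0.059 and 0.055).

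In order of mean level, 30 min of heat stood above 60 min in BIP1, GRP94, calnexin, calreticulin and PDIL2-3 (with total counts alone 60 min was the higher in calreticulin), and both heat times above the other groups. Between the heat times GRP94 and calreticulin did not pass in the edgeR fit with TMM over all 15 libraries, but passed in the fit of these groups alone, with and without the replicate block, and by DESeq2. PDIL1-1 passed in none of these. Of all genes 24.3% passed in the first fit, 39.1% with the block, 36.1% in the groups alone without it and 30.2% by DESeq2. Severe drought had the lowest mean of all groups in each of the 6 abundant genes, but mild drought, severe drought and the wet control could not be told apart by the test in any of them.

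Within groups the genes varied together. Replicate 1 was the highest of its group for all 7 tested genes after 30 min of heat and after 60 min, with median deviations of 0.39 and 0.27 log2 CPM from the group mean. Replicate 1 was also the highest for 6 of the 7 in the wet control (0.34) and for 5 in severe drought (0.13), and replicate 2 for 6 in mild drought (0.34). BIP4 was at 0 in all drought libraries and has no highest one there. Over the 15 pairs of the 6 abundant genes, correlations between deviations from group means had a median of 0.82, with a range of 0.71 to 0.95 over 15 libraries, which share their depth and scaling. The median over all pairs of tested genes was 0.005. These values are a description of these libraries, with no test.

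Other genes of ER folding and the unfolded protein response were read from a list of 19 loci, of which 16 were in the table and tested. The loci listed as BIP2, BIP3 and PDIL5-3 were not analysed here. After 30 min of heat 8 of the 16 were higher and 2 lower (median 0.57), and after 60 min 7 were higher and 2 lower (median 0.72; edgeR), where 38.9% and 32% of all genes were past the threshold. With total counts alone the balance at 30 min was 7 higher and 7 lower with a median of -0.32, and at 60 min 7 higher and 3 lower with a median of 0.59. Under that scaling 7.23% of all genes were higher and 61% lower at 30 min, and 12.6% and 18.6% at 60 min. In mild and in severe drought 0 passed (edgeR), where 1.44% and 2.69% of all genes did. At an unadjusted p under 0.05 there were 0 and 1 of the 16, against 4498 and 3876 of all 20462 genes (edgeR).

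All 4 regulators of the unfolded protein response on the list rose at both heat times, where 19.3% of all genes were higher after 30 min and 16.2% after 60 min. BZIP60, a membrane-tethered factor, averaged 435 CPM after 30 min of heat, against 10.3 CPM in the wet control (5.39 ± 0.18, adjusted p = 1.1e-10, edgeR). BZIP39, of the same kind, averaged 238 CPM, against 21.7 CPM (3.46 ± 0.29). BZIP50, whose mRNA IRE1 splices, averaged 99.2 CPM, against 10.1 CPM (3.30 ± 0.23), and IRE1 164 CPM, against 28.9 CPM (2.51 ± 0.16). Counts per gene do not separate spliced from unspliced BZIP50 mRNA. After 60 min the log2 fold changes over the wet control were 3.00 for BZIP60, 2.19 for BZIP39, 2.51 for BZIP50 and 1.38 for IRE1. At 60 min against 30 min, where 13.9% of all genes were lower, all 4 were lower, at -2.39 for BZIP60, -1.26 for BZIP39, -1.13 for IRE1 and -0.79 for BZIP50. With total counts alone BZIP60 was the 1 that passed (-1.64), where 3.32% of all genes were lower. The call on BZIP50 was lost without replicate 1 of 30 min and without replicate 1 or 2 of 60 min.

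Of 9 other disulfide isomerase genes tested, 2 were higher, 2 lower and 5 not past the threshold after 30 min of heat (median -0.04, edgeR), a share called that is near the 38.9% of all genes. PDIL1-3 averaged 1.1999 CPM, against 0.196 CPM in the wet control (2.60 ± 0.47), and PDIL2-1 had 0.42 ± 0.15, a call lost without replicate 1, 2 or 3 of 30 min and without wet replicate 2 or 3, and turned to -0.48 with total counts alone. PDIL1-2 (-1.21 ± 0.31) and PDIL1-4 (-1.06 ± 0.28) were lower. With total counts alone 1 of the 9 was higher and 7 lower, where 7.23% of all genes were higher and 61% lower. After 60 min PDIL1-3 was higher (3.04 ± 0.47), PDIL1-2 (-1.36 ± 0.31) and PDIL1-4 (-0.82 ± 0.27) were lower, and 6 did not pass. The share called was again near that of all genes, 32%. The call on PDIL1-4 at 60 min was lost without replicate 1 or 3 of 60 min and without wet replicate 1 or 2. For 2 more loci of the list, whose names were not found in the gene name table, values are given by identifier: LOC_Os03g61670 averaged 131 CPM after 30 min, against 2.13 CPM in the wet control (5.94 ± 0.48), and LOC_Os03g52340 averaged 183 CPM, against 9.59 CPM (4.25 ± 0.19).

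Across the 15 libraries, the gene whose log2 CPM followed the mean pattern of the 7 tested genes most closely was LOC_Os08g17680, with a Pearson r of 0.991. It rose by 4.44 after 30 min and 3.601 after 60 min of heat on the log2 scale. LOC_Os03g61670 had an r of 0.991 as well. Of the regulators BZIP50 was the closest, with an r of 0.98 at rank 13 of all other tested genes. The 15 points form 2 sets, heat and no heat, so these values describe likeness between libraries and carry no p.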

How the data were processed

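The authors deposited raw read counts per gene, whole numbers that are not normalized, for 15 libraries of whole rice shoots. Per the labels' protocols, stranded mRNA libraries (NEBNext) were prepared from RNA extracted by RNeasy. The submitters' processing notes list Trimmomatic, HISAT2 and featureCounts without versions. For the build and the counting strand, the setting is not given in the sources used here, so reads of overlapping or antisense genes and of close paralogs may be mixed. Sample titles gave the groups and replicate numbers.

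The test was edgeR 4.0.16 in R 4.3.3. After filterByExpr with a minimum count of 10 and a minimum total of 15, 20462 genes were kept. TMM factors and a robust quasi-likelihood fit used all 15 libraries, with 1 mean per group. P-values were adjusted by Benjamini-Hochberg over all these genes, and the threshold was 0.05. To get an SE, each log2 fold change was divided by the square root of its F. CPM are scaled by TMM, and their SD is over 3 libraries. All groups share 1 estimate of the spread, so the heat libraries also enter the drought p-values. No count was found for 1205 genes. Replicates of a group differed by a chi-square per gene of 28.8 to 466.5, so none was deposited more than once. The steps were tested on counts simulated for 30 min of heat against the wet control. Of 100 genes with a true log2 change of 1, 16% were called, and of 100 with a change of 2, 54%. A gene that is not called may thus still differ. There 20084 of 20284 genes were left unchanged, so the simulation does not cover shifts as broad as those in heat.

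Alternatives were DESeq2 1.42.0, RLE size factors, total counts alone, no filter, a further 2-fold limit, the compared groups alone, a replicate block, and each library left out. Groups share replicate numbers in the labels. Among 10 pairs of groups, same-numbered libraries were all correlated over 0.1 in their deviations from the group means in 1, the heat times, with 0.21 to 0.45. Libraries of unlike numbers there had -0.42 to 0.27, which overlaps that range. A pairing is thus not established, and the labels give only the numbers.

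The genes and lists were chosen with earlier results of these data known. All 8 genes are named, and from the list of other ER genes those past the threshold, at most 6 a comparison by smallest p, together with those that complete a group; the genes of closest likeness were taken by Pearson r. Names came with the lists. A RefSeq gene table of assembly ASM3414082v1 held 5 of the 8 names and 16 of the 19 others on the same chromosome within 4000 kb of the expected place. It is of another build, so no coordinates are given. Sequences were not used here.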

Additional observations from a re-analysis of the deposited data

How the results depend on the processing

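Counts of the 7 tested genes past the threshold kept within 1.5 times of the reported count, except at 60 against 30 min of heat. There 3 were called, and 5 with the compared groups alone, 6 with those groups and a replicate block (chosen after seeing the data), and 5 by DESeq2. The same fits, in that order, called 24.3%, 36.1%, 39.1% and 30.2% of all genes. The replicate block over all 15 libraries gave 4 (BIP4 added at 3.35, adjusted p = 0.017, edgeR) and changed no other call or count among the 7 genes. Among the 16 other ER genes it left 7 higher after 30 min, against 8 without it. Leaving out 1 library gave 2 to 3 there, 6 to 7 after 30 min against the wet control and 7 after 60 min. After 30 min, 5 were called with total counts alone and 6 with the compared groups alone, where BIP4 failed the filter. With total counts alone the sign turned for calnexin (-0.14) and PDIL2-3 (-0.070) in mild drought and for calreticulin (0.21) at 60 against 30 min. With a library left out, values near 0 changed sign. In mild drought against the wet control they ran from -0.44 to 0.11 for BIP1, -0.53 to 0.22 for GRP94, -0.14 to 0.24 for calnexin, -0.34 to 0.028 for calreticulin, -0.62 to 0.064 for PDIL1-1 and -0.035 to 0.30 for PDIL2-3. In severe drought against the wet control calnexin ran from -0.26 to 0.060, and at 60 against 30 min of heat PDIL1-1 from -0.13 to 0.32. In severe against mild drought they ran from -0.50 to 0.0026 for BIP1, -0.56 to 0.079 for GRP94, -0.36 to 0.00078 for calnexin and -0.51 to 0.022 for PDIL1-1. The cause was not tested. Over its settings BIP1 was at 3.99 to 5.10 after 30 min and 3.47 to 3.96 after 60 min, past the threshold in all. BIP4 and BIP5 have few counts and BIP4 also a wide spread between replicates, while the 6 abundant genes have over 1000 counts in every library. A promoter search and a BiP share per coding length were not run.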
